A study of Danio rerio with 6 samples.

Results

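Transcripts of the aryl hydrocarbon receptor (AHR) pathway were followed in the trunk of injured zebrafish larvae with and without a Wnt antagonist. The set holds 10 genes, chosen with earlier results of these data known and taken by name from the deposited annotation. They are the cytochrome P450 genes cyp1a, cyp1b1, cyp1c1, cyp1c2 and cyp1d1, the receptor gene ahr2, the receptor repressor genes ahrra and ahrrb, tiparp, and the forkhead gene foxq1a. Each had 1 gene ID, and all 10 were among the 22350 genes of the count table and the 19562 genes tested. The animals were wild-type larvae of the AB strain, raised with methylene blue in the medium until 24 h post fertilization, and their spinal cord was severed at 5 days post fertilization under 0.016% Tricaine. After 6 h the treated group received 35 µM IWR-1, a small molecule that stabilises Axin and so lowers Wnt/β-catenin signalling, dissolved in 0.25% DMSO, and the control group received 0.25% DMSO alone. Both groups were fed rotifers from 1 day post injury and were collected at 3 days post injury, which is 8 days post fertilization. Each sample pooled about 1 mm of trunk around the lesion from 20 larvae, with 3 biological replicates per group and 6 libraries in all. Library totals ran from 11014963 to 15219664 counts. DMSO replicate 2 differed most from its group, with a chi-square per degree of freedom of 26.6 and 47.2 against the other two DMSO libraries, which gave 14.5 between themselves. No uninjured or untreated larvae were analysed here, so every difference is between injured larvae with and without IWR-1.

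AHR is a ligand-activated transcription factor of the bHLH-PAS family, held in the cytoplasm by Hsp90 and its co-chaperones. Bound by planar aromatic pollutants such as dioxins, or by tryptophan-derived compounds such as kynurenine, it enters the nucleus, pairs with Arnt and activates genes that carry its response element. cyp1a is the most widely used readout of that activity in fish, where it can be induced in endothelium, liver, gut, kidney and skin. The repressor Ahrr and the ADP-ribosyltransferase Tiparp are themselves induced by the receptor and feed back on it. In zebrafish, Ahr2 is the main mediator of dioxin toxicity.

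With IWR-1, cyp1a, cyp1b1 and foxq1a fell, and none of the other 7 genes passed the test. The mean level of cyp1a was 4.46-fold lower, that of cyp1b1 7.82-fold lower and that of foxq1a 2.59-fold lower. The 3 called genes are 30% of the 10. Of all tested genes, 3.59% were called lower and 3.88% higher at a Benjamini-Hochberg adjusted p below 0.05 in edgeR's quasi-likelihood test. Because the 10 were chosen with earlier results of these data known, these shares describe the set and do not test it. The receptor gene ahr2, tiparp and the repressor genes ahrra and ahrrb were not called in either direction; of the 7 uncalled genes only cyp1c1 had an unadjusted p below 0.05 (edgeR, 0.0240), and DESeq2 called the same 3 genes and no other. Levels below are CPM, read counts brought to a common library size with TMM scaling; they are not divided by transcript length, so they compare libraries and not genes.

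**Figure D1:**
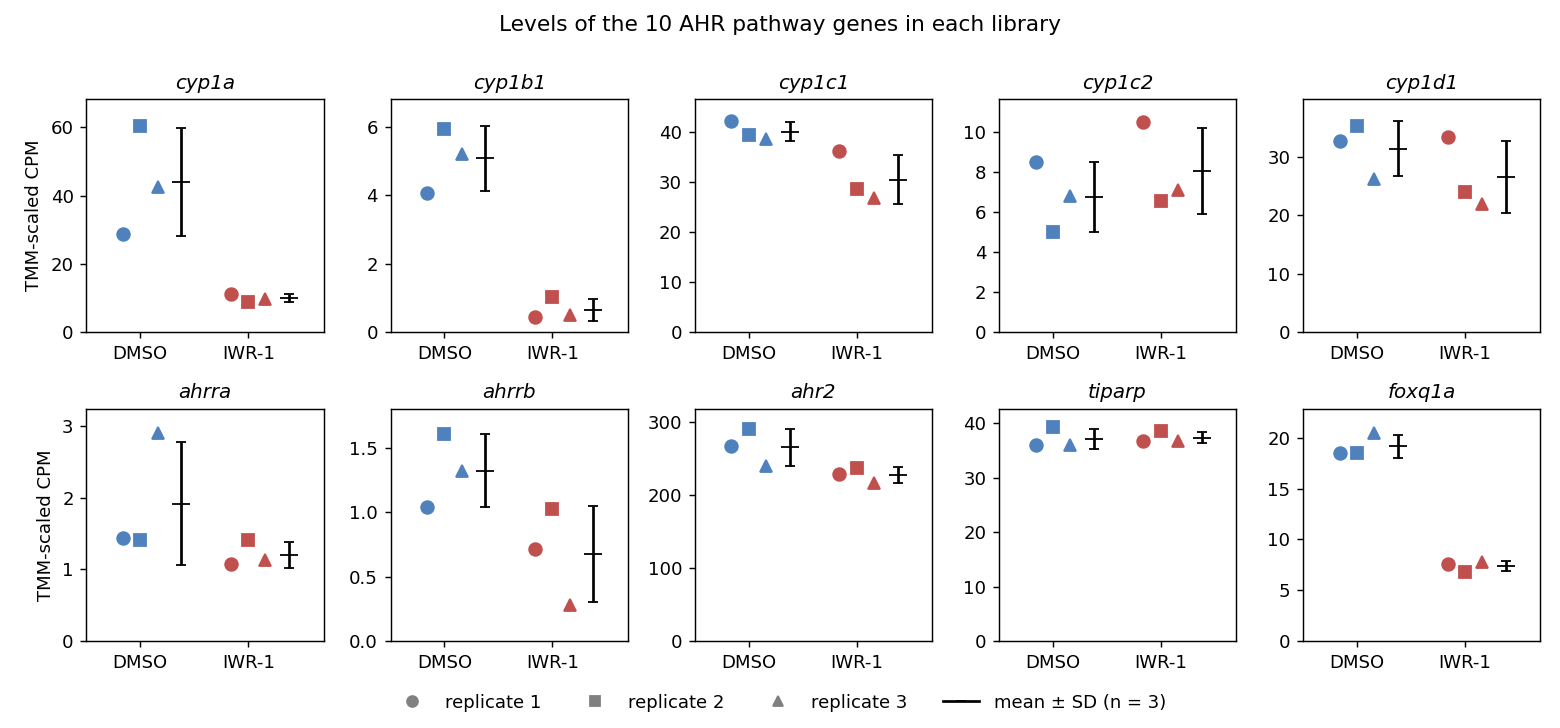
CPM of each of the 10 genes in the 3 DMSO (blue) and 3 IWR-1 (red) libraries on linear axes that start at 0, with marker shapes for the replicate numbers and black bars for the mean ± SD (n = 3). The IWR-1 points of cyp1a, cyp1b1 and foxq1a lie far below their DMSO points, while those of tiparp, at 36.8 to 38.5 CPM, lie within the DMSO range of 36.0 to 39.3.

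cyp1a (ENSDARG00000098315, chromosome 18, 5588068 to 5598958, minus strand, GRCz11) encodes a monooxygenase that oxidises polycyclic aromatic compounds. In the DMSO libraries of replicates 1, 2 and 3 it was at 28.8, 60.6 and 42.6 CPM (361, 643 and 646 counts). With IWR-1 it was at 11.1, 8.72 and 9.77 CPM (155, 111 and 138 counts). The groups did not overlap, and the lowest DMSO library was still 2.59-fold above the highest IWR-1 library. The DMSO values spread over a 2.10-fold range and the IWR-1 values over a 1.27-fold range. Means were 44.0 ± 15.9 CPM with DMSO and 9.87 ± 1.201 CPM with IWR-1 (SD, n = 3 each), a log2 fold change of -2.15 ± 0.25 SE at an edgeR adjusted p of 0.000672. Of all tested genes, 0.25% had a lower fold change.

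cyp1b1 (ENSDARG00000068934, chromosome 13, 42011285 to 42018948, plus strand) encodes an enzyme known in mammals for oxidising oestrogens and retinoids. It had 51, 63 and 79 counts in the DMSO libraries of replicates 1, 2 and 3, which is 4.07, 5.93 and 5.21 CPM. In the IWR-1 libraries it had 6, 13 and 7 counts, or 0.43, 1.02 and 0.50 CPM. Every IWR-1 library lay below every DMSO library, by at least 3.99-fold. The log2 fold change was -2.96 ± 0.34 SE (edgeR adjusted p = 0.000666), the largest fall of the 10. With 26 counts in the 3 IWR-1 libraries together, the 7.91-fold difference in summed counts has a 95% exact binomial interval of 5.24 to 12.4, which covers counting error only. cyp1b1 reached the filter's level of 0.754 CPM in all 3 DMSO libraries and in 1 IWR-1 library, so its place among the tested genes rests on the DMSO group.

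cyp1c1, cyp1c2 and cyp1d1 encode the other CYP1 enzymes of fish. In zebrafish cyp1c1 and cyp1c2 can be induced through AHR, whereas cyp1d1 was not inducible by a planar chlorinated biphenyl. cyp1c1 (ENSDARG00000101195, on an unplaced scaffold) was at 42.3, 39.5 and 38.6 CPM in DMSO replicates 1, 2 and 3 and at 36.1, 28.7 and 26.8 CPM in IWR-1 replicates 1, 2 and 3. Its groups did not overlap, as was so in this direction for 15.6% of tested genes, and its log2 fold change of -0.39 ± 0.15 SE missed the threshold (edgeR adjusted p = 0.141). With the replicate number as a block it passed, at -0.40 ± 0.13 and an edgeR adjusted p of 0.0450; in that fit 8.86% of all tested genes were called lower. cyp1c2 (ENSDARG00000101789, chromosome 17, 996509 to 998695) was at 8.47, 4.99 and 6.80 CPM with DMSO and at 10.5, 6.52 and 7.08 CPM with IWR-1. Its groups overlapped (log2 fold change 0.24 ± 0.25 SE, edgeR adjusted p = 0.581). cyp1d1 (ENSDARG00000035569, chromosome 5, 25603761 to 25621386) overlapped as well, at 32.7, 35.2 and 26.2 CPM with DMSO and 33.4, 24.0 and 21.9 CPM with IWR-1 (-0.24 ± 0.19 SE, edgeR adjusted p = 0.457). cyp1c1 and cyp1c2 are close paralogs, and reads that fit both could be divided between them in a way the deposited counts do not show.

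cyp1a held 24.8%, 41.4% and 35.7% of the cyp1 CPM in DMSO replicates 1, 2 and 3, and 12.1%, 12.7% and 14.8% in IWR-1 replicates 1, 2 and 3. The share of cyp1d1 was 21.9% to 28.1% with DMSO and 33.2% to 36.5% with IWR-1, over a smaller cyp1 total and with its own mean level at 31.4 CPM with DMSO and 26.4 CPM with IWR-1. Summed over the 5 genes, the level was 116, 146 and 119 CPM with DMSO and 91.6, 68.9 and 66.1 CPM with IWR-1.

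**Figure D2:**
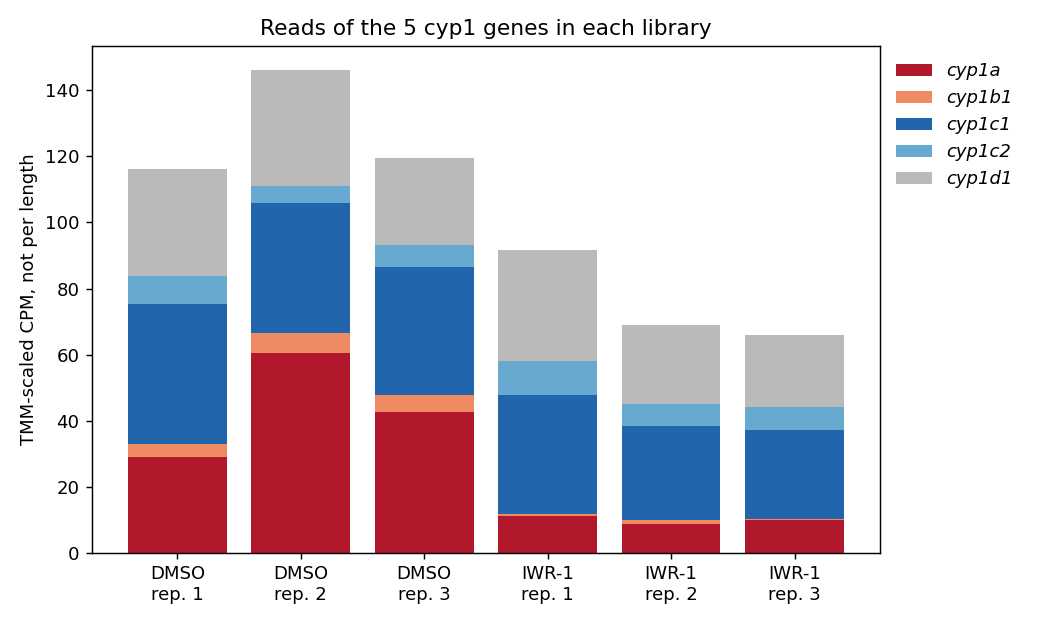
Stacked bars of the CPM of the 5 cyp1 genes in each library (linear axis from 0, not per length). The dark red cyp1a segment shrinks from 28.8 to 60.6 CPM with DMSO to between 8.72 and 11.1 CPM with IWR-1, while the cyp1c2 segment stays within 4.99 to 10.5 CPM.

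foxq1a (ENSDARG00000030896, chromosome 2, 720779 to 722170, minus strand) encodes a forkhead transcription factor whose paralog foxq1b was found to be induced by dioxin in zebrafish embryos. It was at 18.5, 18.5 and 20.5 CPM in DMSO replicates 1, 2 and 3 (232, 196 and 310 counts) and at 7.60, 6.83 and 7.79 CPM in IWR-1 replicates 1, 2 and 3 (106, 87 and 110 counts). Both groups were tight, with the highest library 1.11-fold and 1.14-fold above the lowest, and they were separated by a 2.37-fold gap. The log2 fold change was -1.37 ± 0.16 SE (edgeR adjusted p = 0.000666).

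The receptor gene ahr2 (ENSDARG00000021833, chromosome 22, 13046270 to 13165186) was at 267, 290 and 239 CPM with DMSO and at 228, 237 and 216 CPM with IWR-1. The highest IWR-1 library lay just under the lowest DMSO library, 1.01-fold apart, and the difference of -0.22 ± 0.14 SE on the log2 scale was not called (edgeR adjusted p = 0.349). With 9257 counts summed over IWR-1 and 10041 over DMSO it is the most deeply counted of the 10. A gene annotated on the same strand within its span, BX908726.1, had between 17 and 42 counts per library.

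The repressor genes were the least deeply counted. ahrra (ENSDARG00000099702, chromosome 24, 42094833 to 42101600) had 18, 15 and 44 counts in DMSO replicates 1, 2 and 3 and 15, 18 and 16 counts in IWR-1 replicates 1, 2 and 3. Its DMSO mean of 1.92 ± 0.85 CPM rests on replicate 3, at 2.90 CPM against 1.44 and 1.41 CPM in the other two libraries; with IWR-1 it was at 1.21 ± 0.18 CPM (SD, n = 3 each). The log2 fold change was -0.70 ± 0.37 SE (edgeR adjusted p = 0.271), and without DMSO replicate 3 it was -0.24 (edgeR adjusted p = 0.709). ahrrb (ENSDARG00000052618, chromosome 2, 50133594 to 50198328) had 13, 17 and 20 counts with DMSO and 10, 13 and 4 with IWR-1. Scaled for depth its groups did not overlap, by a 1.02-fold gap, and the log2 fold change of -0.97 ± 0.44 SE was not called (edgeR adjusted p = 0.213). It, too, reached the filter's level in all 3 DMSO libraries and in 1 IWR-1 library. At 49 and 27 counts summed over the IWR-1 libraries, the 95% exact binomial intervals of the difference in summed counts reach from 1.16-fold to 2.45-fold lower for ahrra and from 1.21-fold to 3.28-fold lower for ahrrb, before any spread between replicates.

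tiparp (ENSDARG00000061841, chromosome 18, 34599315 to 34642086), the feedback ADP-ribosyltransferase, was at 36.0, 39.3 and 36.0 CPM with DMSO and at 36.8, 38.5 and 36.8 CPM with IWR-1. The groups overlapped fully, and the log2 fold change was 0.01 ± 0.13 SE (edgeR adjusted p = 0.968). With 1523 and 1413 summed counts, the ratio of IWR-1 to DMSO has a 95% counting interval of 0.94 to 1.09.

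**Figure D3:**
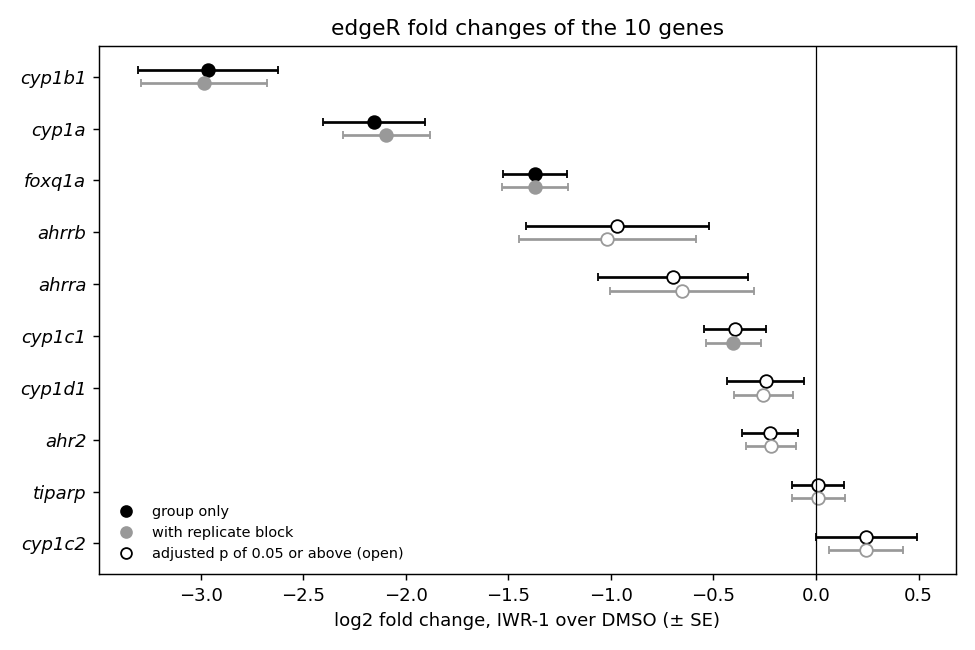
edgeR log2 fold changes (IWR-1 over DMSO) of the 10 genes with standard errors, from the fit on group (black) and with the replicate number as a block (grey); filled points have an adjusted p below 0.05. cyp1b1 (-2.96), cyp1a (-2.15) and foxq1a (-1.37) stand apart from the other 7, which lie between -0.97 and 0.24, and cyp1c1 is filled in the blocked fit alone.

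Over all 10 genes, 8 had a fold change below 0 and 6 had groups that did not overlap, each with IWR-1 lower; non-overlap in that direction was found for 15.6% of tested genes. The median log2 fold change was -0.55, against -0.0060 over all tested genes, for a set chosen with earlier results of these data known. The 6 genes without overlap were cyp1a, cyp1b1, cyp1c1, foxq1a, ahrrb and ahr2. Of these, cyp1b1 and ahrrb reached the filter's level in 3 DMSO libraries and 1 IWR-1 library, so they were tested through the group in which they are high. The gaps of ahrrb and ahr2 were only 1.02-fold and 1.01-fold. Without overlap a gene must be lower in 3 of 3 pairs of the same replicate number, so the pairs add nothing for these 6. cyp1c2 was lower in 0 of 3 pairs. The log2 ratio of cyp1a ran from -2.73 in pair 2 to -1.34 in pair 1, that of cyp1b1 from -2.52 to -2.08, and that of foxq1a from -1.37 to -1.23. These ratios add 0.5 to the CPM. For cyp1b1, at 0.43 to 1.02 CPM with IWR-1, this makes the falls smaller and their spread narrower. Every pair ratio of cyp1b1 was a smaller fall than its fitted log2 fold change of -2.96. In the authors' deposited table the log2 fold changes were -1.88 for cyp1a, -2.13 for cyp1b1 and -1.25 for foxq1a, with adjusted p of 1.05e-14, 1.08e-09 and 5.57e-09. DESeq2 fitted here gave -2.15, -2.98 and -1.37, a larger fall for each gene, and the reason was not tested. Of the 10 genes, these 3 were below an adjusted p of 0.05 in the authors' deposited table, in which 4.06% of genes with an adjusted p were lower and 4.28% higher.

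Leaving out each library in turn, DMSO replicate 2 included, left the 3 calls in place. The log2 fold change of cyp1a then ran from -2.38 to -1.85 (edgeR adjusted p at most 0.00598), that of cyp1b1 from -3.42 to -2.74 (at most 0.00621) and that of foxq1a from -1.40 to -1.31 (at most 0.00783).

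**Figure D4:**
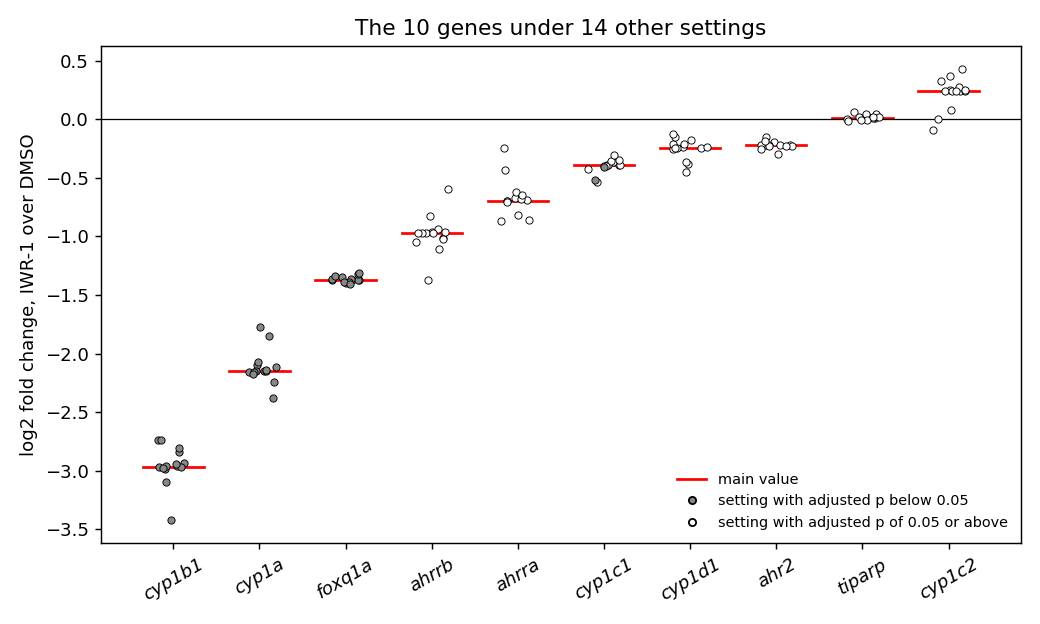
log2 fold changes of the 10 genes under 14 other settings (points; filled where the adjusted p is below 0.05) around the main value (red line). The points of cyp1a, cyp1b1 and foxq1a are all filled, and those of cyp1c2 and tiparp fall on both sides of 0.

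Genes that act beside the receptor were read from lists of pathway members. Of all tested genes, 3.59% were called lower and 3.88% higher in the fit on group, and 8.86% and 8.96% with the replicate block. The counts called in each list stand beside these shares. Among 8 tested receptor paralogs, partners and chaperones, hsp90aa1.2, a cytosolic Hsp90 gene, rose, and none fell; with the replicate block 1 also fell, the Hsp90 co-chaperone gene ptges3a (-0.50 in the fit on group, edgeR adjusted p = 0.0902, and 0.0138 with the block). hsp90aa1.2 was at 35.2, 29.3 and 34.6 CPM with DMSO and at 59.4, 73.4 and 91.3 CPM with IWR-1 (log2 fold change 1.18 ± 0.17 SE, edgeR adjusted p = 0.00285). The Hsp90 genes hsp90ab1 and hsp90aa1.1 had more reads, at means of 1720 and 303 CPM with DMSO and 1944 and 250 CPM with IWR-1. Neither was called (edgeR adjusted p = 0.485 and 0.556). The dimer partner arnt was at 32.0, 29.2 and 29.6 CPM with DMSO and at 42.3, 35.9 and 37.7 CPM with IWR-1, groups that did not overlap (14.2% of tested genes were non-overlapping with IWR-1 higher), but was not called (0.35 ± 0.13 SE, edgeR adjusted p = 0.142). arnt2 and the receptor paralog ahr1b lay at -0.13 and -0.28 on the log2 scale (edgeR adjusted p = 0.661 and 0.685). ahr1a had no row in the count table used here.

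Of 12 tested genes reported elsewhere to respond to AHR ligands, 1 fell and none rose, against 3.59% and 3.88% of all tested genes. The gene that fell was socs2, a cytokine signalling inhibitor, from 25.5, 23.0 and 19.1 CPM with DMSO to 16.4, 10.9 and 12.6 CPM with IWR-1 (log2 fold change -0.76 ± 0.19 SE, edgeR adjusted p = 0.0360). The call was lost when DMSO replicate 1 (edgeR adjusted p = 0.141), IWR-1 replicate 2 (0.150) or IWR-1 replicate 3 (0.172) was left out. The quinone reductase gene nqo1, a common AHR and NRF2 target, was at -0.23 ± 0.15 SE (edgeR adjusted p = 0.386). foxq1b, the paralog of foxq1a, was at -0.78 ± 0.23 SE (edgeR adjusted p = 0.0614), and the glucuronosyltransferase gene ugt1a2 at -1.22 ± 0.34 SE (edgeR adjusted p = 0.0533); with the replicate block these were 0.0154 and 0.00239. In the other direction, sox9b, a cartilage and fin transcription factor gene that dioxin represses in zebrafish, was at 0.60 ± 0.19 SE (edgeR adjusted p = 0.0832, and 0.00751 with the block), and the cyclooxygenase gene ptgs2b at 0.60 ± 0.22 SE (0.130, and 0.0486 with the block). In the blocked fit 3 of the 12 were lower and 2 higher, against 8.86% and 8.96% of all tested genes. The median of the list was -0.16. As the list holds sox9b, which dioxin lowers, beside foxq1b, which it induces, its counts and median give no direction of receptor activity.

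The next list holds enzymes that turn tryptophan into kynurenine, a source of natural AHR ligands, and enzymes that process kynurenine further. Of 13 listed genes 4 had no row in the count table used here, tdo2a among them. tdo2b was removed by the filter, at means of 0.32 CPM with IWR-1 and 0.13 CPM with DMSO. Among 8 tested genes 2 rose and none fell, against 3.88% higher and 3.59% lower of all tested genes. The 2 were ido1, which acts before kynurenine, and kmo, which acts on it. ido1, which catalyses the first step and is known in mammals as an interferon-induced gene, was at 1.76, 2.54 and 0.92 CPM with DMSO and at 5.59, 9.58 and 12.7 CPM with IWR-1 (log2 fold change 2.46 ± 0.38 SE, edgeR adjusted p = 0.00358). kmo, which hydroxylates kynurenine further, was at 0.72, 0.94 and 0.53 CPM with DMSO and at 2.15, 3.69 and 2.19 CPM with IWR-1 (1.89 ± 0.37 SE, edgeR adjusted p = 0.0124). Neither gene's groups overlapped, as was so with IWR-1 higher for 14.2% of tested genes. kmo was not called once IWR-1 replicate 2 was left out (edgeR adjusted p = 0.0639). Another enzyme gene of the list, afmid, was at 0.08 ± 0.26 SE (edgeR adjusted p = 0.873), and the median of the list was 0.16. With the replicate block 1 gene of the list also fell, the aminotransferase gene kyat3 (-0.56 in the fit on group, edgeR adjusted p = 0.0522, and 0.0235 with the block). kmo reached the filter's level in all 3 IWR-1 libraries and in 1 DMSO library. ido1 and kmo were thus higher in the group in which cyp1a and cyp1b1 were lower, and no relation between them was tested.

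For the next 2 lists the shares of all tested genes were again 3.59% lower and 3.88% higher in the fit on group, and 8.86% and 8.96% with the replicate block. Among 15 tested NRF2 oxidative-stress targets, 1 was called, the haem oxygenase gene hmox1a (log2 fold change 1.62 ± 0.41 SE, edgeR adjusted p = 0.0374). It was at 6.81, 22.0 and 23.3 CPM in IWR-1 replicates 1, 2 and 3 and at 7.75, 3.77 and 5.35 CPM in DMSO replicates 1, 2 and 3, so the groups overlapped. With the replicate block its edgeR adjusted p was 0.197, and without any 1 of DMSO replicates 1, 2 and 3 and IWR-1 replicates 2 and 3 it was 0.0567, 0.221, 0.0669, 0.126 and 0.170. With that block edgeR called 2 other genes of the list lower and none higher: nfe2l2b, a paralog of the NRF2 gene (-1.06 in the fit on group), and the peroxiredoxin gene prdx1 (-0.59), at edgeR adjusted p of 0.00838 and 0.0116 with the block, against 0.0839 and 0.179 without it. Of 14 tested hypoxia genes, whose regulators share the partner Arnt, 1 fell, the HIF-2α gene epas1a (-0.63 ± 0.14 SE, edgeR adjusted p = 0.0207), and the list's median was -0.0013; with the replicate block hif1aa was also called, higher (0.86 in the fit on group, edgeR adjusted p = 0.0771, and 0.0337 with the block). epas1a was not called when DMSO replicate 1 (0.0777) or any of the 3 IWR-1 libraries (0.0514, 0.113 and 0.0778 for replicates 1, 2 and 3) was left out.

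Outside the cyp1 family, 4 of 41 tested cytochrome P450 genes fell and 0 rose, against 3.59% and 3.88% of all tested genes; 11 of the 41 had an unadjusted p below 0.05, and with the replicate block 6 fell and 1 rose (8.86% and 8.96% of all tested genes in that fit). The median log2 fold change of the 41 was -0.10. cyp2n13, with 17, 19 and 26 counts in the DMSO libraries and 6, 4 and 1 in the IWR-1 libraries, had the lowest value (-2.54 ± 0.48 SE, edgeR adjusted p = 0.0109). It reached the filter's level in the 3 DMSO libraries and in 0 IWR-1 libraries, so it was tested through the group in which it is high. cyp2p6 was at -1.04, cyp27c1, whose enzyme converts vitamin A1 to A2, at -0.87, and cyp27a7 at -0.79, with edgeR adjusted p of 0.0233, 0.00779 and 0.0273. Leaving out IWR-1 replicate 3 ended all 4 calls, at edgeR adjusted p of 0.0541 for cyp2n13, 0.134 for cyp2p6, 0.0639 for cyp27c1 and 0.119 for cyp27a7. cyp2p6 (0.0878) and cyp27a7 (0.125) also lost theirs when DMSO replicate 1 was dropped, as they did for IWR-1 replicate 2 (0.102 for cyp2p6, 0.106 for cyp27a7), and cyp27a7 did so for IWR-1 replicate 1 (0.0800). The 4 tested genes of family 3, which includes targets of the pregnane X receptor, lay between 0.10 and 1.202 with none called.

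Of 49 tested conjugation enzymes, which attach sugars, sulphate or glutathione to the oxidised products, 4 fell and 2 rose, against 3.59% lower and 3.88% higher among all tested genes, with a median of -0.28. With the replicate block 11 fell and 5 rose, where 8.86% and 8.96% of all tested genes did. Changes in the rest of this paragraph are on the log2 scale. The sulphotransferase genes moved in both directions: sult1st6 fell by 2.71 ± 0.45 SE (edgeR adjusted p = 0.00538), while sult1st7 rose by 2.56 ± 0.40 SE (edgeR adjusted p = 0.00378). Of these, sult1st6 reached the filter's level in 3 DMSO and 0 IWR-1 libraries, and sult1st7 in 3 IWR-1 libraries and 1 DMSO library. The glucuronosyltransferase gene ugt5f1 rose by 1.51, and sult6b1 (-0.65), gstt2 (-0.72) and gstm.1 (-0.66) fell, at edgeR adjusted p of 0.00730, 0.0219, 0.0480 and 0.0394. Those of sult6b1, gstt2 and gstm.1 were 0.117, 0.235 and 0.200 without IWR-1 replicate 3. gstt2 and gstm.1 were at 0.112 and 0.105 without DMSO replicate 1, sult6b1 and gstm.1 at 0.0677 and 0.116 without IWR-1 replicate 1, sult6b1 and gstt2 at 0.0751 and 0.145 without IWR-1 replicate 2, and gstt2 at 0.0623 without DMSO replicate 2. gstt2 was at 0.0521 with RLE and 0.0542 with upper-quartile scaling. Of 8 tested transporters, the efflux pump gene abcb4 rose by 1.16 ± 0.21 SE and abcb5 fell by 1.26 ± 0.17 SE (edgeR adjusted p = 0.00751 and 0.00196); abcb4 was at 0.0504 without IWR-1 replicate 3.

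**Figure D5:**
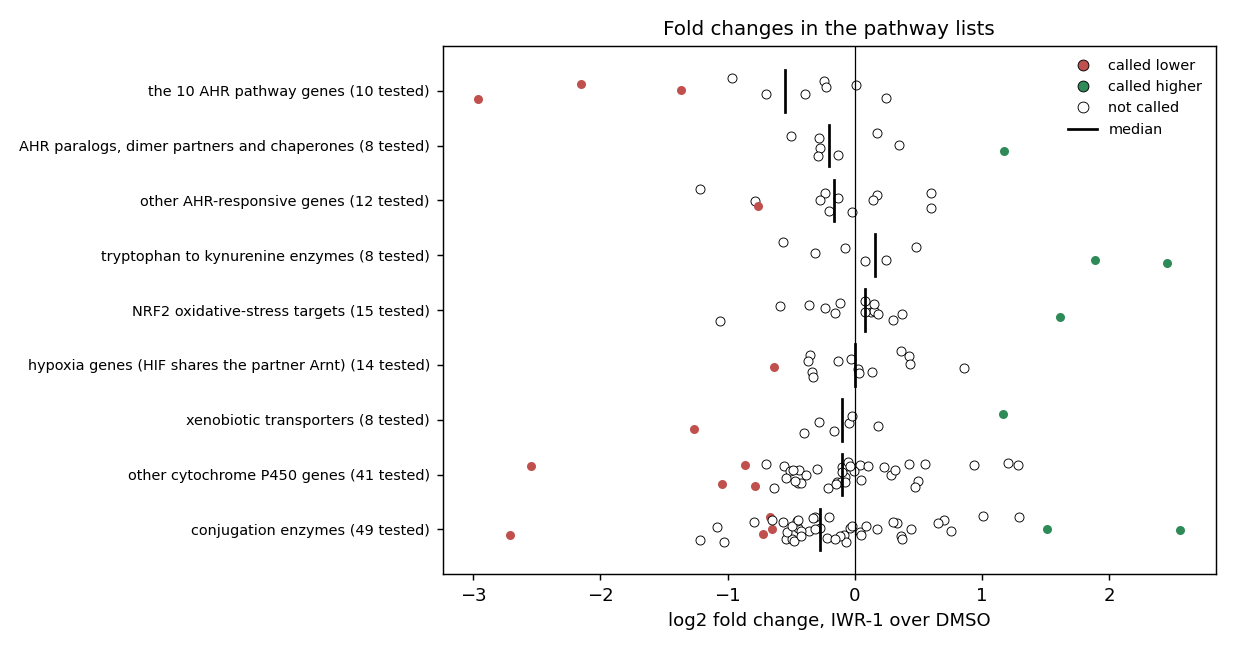
log2 fold changes of the tested genes in the 10-gene set and in 8 surrounding lists, with a black bar at each median; red points were called lower, green points higher and open points were not called. Red points of the 10-gene set lie at -2.96, -2.15 and -1.37, and the medians of the other lists lie between -0.28 and 0.16.

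The tissue is a mixture, so fewer cells of a type that expresses a gene and less of its RNA per cell cannot be told apart. Markers of cells that can express cyp1 genes were therefore summed in each library. Of 12 hepatocyte markers, 9 had no row in the table, fabp10a among them, and the other 3 summed to 4.02, 6.05 and 2.19 CPM in IWR-1 replicates 1, 2 and 3 and to 12.1, 6.31 and 21.5 CPM in DMSO replicates 1, 2 and 3. Single libraries carried the higher DMSO sums: apobb.1, an apolipoprotein B gene, was at 19.2 CPM in DMSO replicate 3 and at most 0.43 CPM in the other 5, and tfa, the transferrin gene, was at 10.8 CPM in DMSO replicate 1 and at most 4.90 CPM in the other 5. tfa (-1.01 ± 0.58 SE, edgeR adjusted p = 0.317) and apoa2 (0.05 ± 0.39 SE, 0.9495) were not called, and apobb.1 was removed by the filter. Of 15 tested endothelial markers 2 fell, cdh5 (-0.74 ± 0.17 SE, edgeR adjusted p = 0.0269) and cldn5b (-1.10 ± 0.24 SE, edgeR adjusted p = 0.0211), and the list summed to between 129 and 172 CPM with IWR-1 and between 159 and 202 CPM with DMSO. Both calls ended when DMSO replicate 1 (0.116 for cdh5, 0.0864 for cldn5b) or IWR-1 replicate 3 (0.147 for cdh5, 0.116 for cldn5b) was dropped, that of cdh5 also for IWR-1 replicate 2 (0.0982) and that of cldn5b for IWR-1 replicate 1 (0.0674). tek, the angiopoietin receptor gene, lay the other way with groups that did not overlap (1.05 ± 0.31 SE, edgeR adjusted p = 0.0654, and 0.00826 with the block). Non-overlap with IWR-1 higher was found for 14.2% of tested genes. With the replicate block 3 of the 15 fell and 1 rose. Of all tested genes, 3.59% fell and 3.88% rose in the fit on group, and 8.86% and 8.96% with the block. Of 10 mural cell markers none was called (2 at an unadjusted p below 0.05, 1 lower with the replicate block), and they summed to between 421 and 583 CPM with IWR-1 and between 541 and 645 CPM with DMSO. Most of that sum was notch3 and cspg4, at means of 157 and 142 CPM with IWR-1 and 221 and 155 CPM with DMSO.

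Other marker lists also differed between the groups, and their counts stand beside shares of all tested genes. Those shares were 3.59% lower and 3.88% higher in the fit on group, and 8.86% and 8.96% with the replicate block. Of 14 fibroblast markers 8 fell, and 11 with the replicate block (summed range 8265 to 10160 CPM with IWR-1, 14824 to 17958 CPM with DMSO). Most of that sum was col1a1a and col1a2, at means of 3659 and 2926 CPM with IWR-1 and 7051.5 and 4965 CPM with DMSO. Of 14 pigment cell markers 8 fell, and 9 with the replicate block (271 to 314 CPM against 590 to 611 CPM). In the fit on group mitfa (-0.51), pax7a (-0.47), pnp4a (-1.02), sox10 (0.32), csf1ra (0.34) and ltk (0.16) were not called. The largest part of the IWR-1 sum was csf1ra, at means of 111 CPM with IWR-1 and 87.6 CPM with DMSO. Of 12 epidermal markers 4 fell and 1 rose (3149 to 4689 CPM against 5143 to 6327 CPM), and with the replicate block 6 fell and 1 rose. The largest parts of that sum were krt4, krt5 and krt91, at means of 1377, 955 and 578 CPM with IWR-1 and 2230, 1534 and 683 CPM with DMSO. In the fit on group krt4, krt5, krtt1c19e and cyt1 fell and cldne rose. Not called were epcam (-0.07), cldni (0.03), evpla (0.30), ppl (0.13), krt91 (-0.24), tp63 (-0.47) and cyt1l (-0.93). Of 12 macrophage markers 4 rose (249 to 418 CPM against 167 to 210 CPM), and 7 with the replicate block. In the fit on group the 4 were mpeg1.2, lcp1, ptprc and cybb. In that fit mpeg1.1, marco, csf1rb, mfap4, coro1a, spi1b, c1qa and c1qb were not called. Their log2 fold changes ran from -0.01 for csf1rb to 1.04 for mfap4, with mpeg1.1 at 0.30. With each library left out in turn, krt5 kept its call in 1 of 6 fits, and cldne, lcp1 and ptprc kept theirs in 3 of 6. The calls of cyt1, mpeg1.2, the fibroblast markers fmoda, prrx1a and prrx1b, and the pigment cell markers gch2, tyr and dct held in 6 of 6. The other called markers of these lists were not followed in this way. Of 11 kidney tubule markers 7 were tested and none was called (112 to 143 CPM against 103 to 141 CPM). In that list 1 had an unadjusted edgeR p below 0.05, and 1 was lower and 1 higher with the replicate block. Its largest parts were slc20a1a and lrp2a, at means of 46.7 and 38.2 CPM with IWR-1 and 34.0 and 39.3 CPM with DMSO. The kidney gene cdh17 was removed by the filter, at means of 0.27 CPM with IWR-1 and 0.31 CPM with DMSO. For slc12a1, slc12a3 and aqp8b there was no row. Of 11 enterocyte markers 3 were tested and none was called (4.64 to 7.93 CPM against 3.39 to 12.5 CPM). In that list 0 had an unadjusted edgeR p below 0.05, and 1 was higher with the replicate block. The part of any of these cell types in the fall of cyp1a, cyp1b1 and foxq1a was not tested.

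The genes most like cyp1a over the 6 libraries, by Pearson's r of log2 (CPM + 0.5) among 15090 named genes with a mean of at least 1 CPM, were nap1l4a (0.995), fgf10a (0.994), hspb2 (0.992), myod1 (0.992) and nradd (0.991). For cyp1b1 they were wif1 (0.997), impdh1b (0.996), tmeff1b (0.996), znf503 (0.996) and lrpprc (0.995). With 6 libraries in 2 groups such values are common: 280 genes exceeded 0.95 with cyp1a and 305 with cyp1b1, so the ranking is a description of these libraries only.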

How the data were processed

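The authors deposited raw counts per Ensembl gene for 6 libraries of rRNA-depleted RNA. Per the labels' protocols, RNA was isolated with a kit for fixed tissue and libraries were directional. The submitters' processing notes name cutadapt, FastQC, STAR, featureCounts and build GRCz11; the sources used here give neither versions nor the strand setting. Every gene in the table has at least 6 counts in some library. Totals ran from 11014963 to 15219664 counts. Columns were assigned through the deposited sample sheet, whose size factors (a ratio per library, by the authors) were not used for scaling. The deposited comparison, with DESeq2 column names per the file headers, gives log2 fold changes, p-values and adjusted p-values. Coordinates and gene names are from the deposited annotation.

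edgeR 4.0.16 (R 4.3.3) was fitted to the counts of the whole table (TMM, filterByExpr, robust quasi-likelihood fit, group as the one term), with Benjamini-Hochberg adjustment over 19562 genes; 2788 were removed as too low. Each standard error is |log2 fold change| over the root of its F value. The common biological coefficient of variation was 17.0%. Per-pair log2 ratios and all correlations add 0.5 to the CPM before the log. The scripts were checked on simulated counts. The 10 genes and the lists were chosen with earlier results of these data known. Genes outside the 10 were named by a rule: the called genes of each pathway list (at most 6 by p), the called markers of each list with the smallest p, and the 5 most like cyp1a and cyp1b1. The other marker lists are given as counts and sums, with some of their genes named. Those named after their values were seen were nqo1, foxq1b, ugt1a2, arnt, arnt2, ahr1b, afmid, ptges3a, sox9b, ptgs2b, kyat3, nfe2l2b, prdx1, hif1aa, tek, apobb.1, tfa, apoa2, hsp90ab1, hsp90aa1.1, notch3, cspg4, col1a1a, col1a2, cdh17, slc20a1a and lrp2a. So were the epidermal markers krt4, krt91, krtt1c19e, cyt1l, epcam, cldni, tp63, evpla and ppl, and the macrophage markers mpeg1.1, marco, csf1rb, mfap4, cybb, coro1a, spi1b, c1qa and c1qb. The same holds for the pigment cell markers mitfa, pax7a, pnp4a, sox10, csf1ra and ltk, the mural cell marker rgs5b, and tdo2b. 1 gene of the list of partners and chaperones is not reported here. Where lists or symbols repeat, the first gene ID was used. The labels do not say whether replicates were separate clutches, so p-values measure the spread between these samples. Same-numbered samples deviated together (correlations of 0.325, 0.373 and 0.172 between their deviations from the group means). The number was therefore used as a pairing in the blocked fit and the per-pair ratios, a choice that comes from the data. The main fit, with its calls, standard errors and p-values, does not use the pairing. Every pair of libraries within a group differed by more than counting noise (chi-square of 8.82 or more per degree of freedom). The alternatives tried were a replicate block, scaling by upper quartile or by RLE, no filter, a stricter filter (CPM of 1 or more in 3 samples), removal of mitochondrial genes and of the 10 most abundant, DESeq2 1.42.0, weighted voom in limma 3.58.1, and omission of each library. Intervals on summed counts pool the libraries of each group, so they cover counting error only and not the spread between replicates. No molecular identifiers are mentioned, so copies of 1 molecule could not be told from separate molecules.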

Additional observations from a re-analysis of the deposited data

How the results depend on the processing

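The count of 3 lower genes among the 10 was 3 or 4 under all 14 alternatives, and that of higher genes 0. The fourth was cyp1c1, called with the replicate block (-0.40) and with limma voom (-0.52, adjusted p = 0.00632). The count of changed genes over the whole table, 1462, was 3486 with the replicate block and 4452 with limma voom, and ran from 447 to 2117 with 1 library left out (680 without DMSO replicate 1, 596 without IWR-1 replicate 2, 447 without IWR-1 replicate 3). The replicate block changed no other call among the 10. Sign changes were found for cyp1c2 with limma voom (-0.093) and for tiparp, which ran from -0.0113 to 0.0601 with 1 library left out and was below 0 when that was replicate 1 (-0.0113) or 3 (-0.0096) of DMSO or replicate 2 of IWR-1 (-0.0082); the cause was not tested. Of the 32 called genes outside the 10 that were followed, 18 lost the call in at least 1 alternative. Depth limits ahrra, ahrrb and cyp1b1, at 49, 27 and 26 counts over the IWR-1 libraries.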
